A study of Mus musculus with 6 samples.

Results

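Cap1, Fscn1 and 8 further genes that govern the assembly and turnover of actin filaments (Cfl1, Pfn1, Coro1a, Tmsb4x, Arpc2, Capzb, Wdr1 and Crk) were followed on each array of Treg-enriched CD4+CD25+ cells, taken from mice lacking HDAC9 and from wild type mice. Members were found by gene symbol: every probe set whose platform annotation carries 1 of these symbols was taken, which gave 26 probe sets for the 10 genes, of 22626 probe sets for 12393 genes on the array. The genes were picked with the differences between the genotypes already known, so these differences are given as a description and no member was tested on its own. The study asked how HDAC9, a class IIa histone deacetylase, bears on Foxp3+ regulatory T cells (Treg). It compared 3 HDAC9-/- samples, described as independent, with 3 samples of wild type mice, all on the C57BL/6 strain and with no treatment named, after magnetic separation of the cells. The sources used here do not give the deleted exons, the age of the mice or whether mice were pooled, and the errors below cover the spread between these samples. Values are log2 expression from Affymetrix arrays, 1 per sample, a number that limits the precision.

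T cells rebuild their actin cortex each time they crawl, meet an antigen-presenting cell or form an immune synapse. Filaments grow at their barbed ends from monomers that profilin delivers and thymosin holds in reserve, branch where the Arp2/3 complex sits on an existing filament, and stop growing when capping protein covers the end. Cofilin severs old filaments with the help of Wdr1 and coronin, and Cap1 (cyclase-associated protein 1) releases cofilin from the monomers and recharges them with ATP. Fascin, the product of Fscn1, packs filaments into straight parallel bundles and is known from the dendrites of mature dendritic cells, while Crk is an adaptor that links tyrosine-phosphorylated proteins to activators of Rac and Rap.

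Of 7 Treg and T cell identity genes, Cd3e, Cd3g, Cd4, Foxp3, Il2ra and Ctla4 lay above the median of all probe sets (5.76) on every array, and Ikzf2, which encodes Helios, lay below it on every array at 4.36 to 5.29. The mean level of the 7 Treg and T cell identity genes was 9.90 to 10.01 in HDAC9-/- and 9.91 to 9.97 in wild type samples. Wild type replicate 3 stood apart. It lay more than 1 log2 unit above or below both other wild type arrays in 122 probe sets, against 2 to 38 probe sets for each of the other 5 arrays measured against the 2 other arrays of their own group, and its median log2 value was 5.69 against 5.77 to 5.81. The difference between 3-prime and 5-prime control probe sets of actin was 0.42 to 0.60 in HDAC9-/- and 0.33 to 0.46 in wild type samples, and the same difference for Gapdh was 0.15 to 0.28 in HDAC9-/- and 0.03 to 0.11 in wild type samples. Both Cap1 probe sets and 2 of the 4 Fscn1 probe sets were among those 122, so values are given with and without wild type replicate 3.

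The promoters of Cap1 and Fscn1, the members on which wild type replicate 3 stood farthest from the other wild type arrays, are shown first, each from 250 bases before the transcription start to 50 bases after it, with the motifs described below in capitals. They are RefSeq sequences on GRCm38.p6, Cap1 at chr4:122886027-122886326 on the minus strand and Fscn1 at chr5:142960105-142960404 on the plus strand, written 5′ to 3′ along the gene.
Cap1: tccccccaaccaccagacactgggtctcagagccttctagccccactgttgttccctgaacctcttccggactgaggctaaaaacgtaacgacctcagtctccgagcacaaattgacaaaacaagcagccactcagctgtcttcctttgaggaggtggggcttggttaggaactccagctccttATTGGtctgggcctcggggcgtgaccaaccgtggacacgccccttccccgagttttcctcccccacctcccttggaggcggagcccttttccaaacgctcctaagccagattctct
Fscn1: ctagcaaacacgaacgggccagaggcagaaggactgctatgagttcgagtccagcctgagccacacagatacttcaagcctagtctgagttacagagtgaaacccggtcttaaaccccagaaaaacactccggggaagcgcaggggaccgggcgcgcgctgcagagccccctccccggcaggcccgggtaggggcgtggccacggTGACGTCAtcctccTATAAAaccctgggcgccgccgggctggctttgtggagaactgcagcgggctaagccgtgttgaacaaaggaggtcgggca
A promoter sequence was found for all 10 genes (11 promoters, as Coro1a has 2). In Fscn1, the cyclic AMP response element letters TGACGTCA stand at -45 to -38 and TATAAA at -31 to -26 before the start. TGACGTCA is present in 1.79% and TATAAA in 13.6% of 32851 mouse promoters of the same length on either strand, and no other member promoter held them. In Cap1, the only match of the motifs searched was CCAAT on the opposite strand (ATTGG) at -66 to -62, a pentamer found in 37.4% of promoters and also in those of Cfl1 and Crk. GGGCGG, the core of the GC box, was in 9 of the 11 member promoters and in 35.7% of all promoters, but not in those of Cap1 and Fscn1. The CArG box of serum response factor, which drives many actin genes, the MEF2 box, whose factors class IIa deacetylases bind, and the kappa B motif were found in 0 of the 11, against 1.63%, 3.19% and 8.46% of all promoters. These are matches of letters in a short window and say nothing about binding.

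Cap1 had less signal in HDAC9-/- cells than in wild type replicates 1 and 2 but more than in wild type replicate 3. Probe set 1417461_at read 9.81, 9.94 and 9.81 in HDAC9-/- cells and 11.04, 10.99 and 9.33 in wild type cells, here and below in the order of replicates 1, 2 and 3. The HDAC9-/- arrays were close to each other and lay between the 2 high wild type arrays and the low one, so the groups overlapped. The means were 9.86 ± 0.07 in HDAC9-/- and 10.45 ± 0.97 in wild type samples (SD, n = 3 each), which differed by -0.60 (standard error 0.44) with a 95% confidence interval from -1.63 to 0.44. The second probe set, 1417462_at, showed the same order, at 8.0, 8.06 and 7.99 in HDAC9-/- and 9.34, 9.26 and 7.68 in wild type samples. Its difference was -0.75 with a standard error of 0.42, and both probe sets were designed on the same source sequence. The gap of wild type replicate 3 to the nearer of its mates, 1.66 and 1.57 log2 units, ranked 8 and 11 among the 22626 probe sets.

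The size of the Cap1 difference depended on which wild type arrays were included. Leaving out wild type replicate 1 gave -0.30 in 1417461_at and -0.45 in 1417462_at, and leaving out wild type replicate 2 gave -0.33 and -0.50 in the same probe sets. Without wild type replicate 3 it was -1.16 (standard error 0.08, 2.23-fold lower) in 1417461_at and -1.28 (standard error 0.07, 2.44-fold lower) in 1417462_at, with no overlap between the genotypes. Of the 6 probe sets on the array with an adjusted p below 0.05 in a limma fit without that array, these were 2 (adjusted p = 0.0191 and 0.0112). As Cap1 was chosen with its values known and a low array was left out, this stands as a description. In bulk samples, fewer cells of a type and less RNA per cell cannot be told apart. Which of the 3 wild type arrays reflects the usual wild type level of Cap1 was not tested.

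Fscn1 had more signal in HDAC9-/- cells in its 2 probe sets above the median of the array, with wild type replicate 3 again on the side of the HDAC9-/- arrays. Probe set 1416514_a_at read 9.80, 9.35 and 9.96 in HDAC9-/- and 8.0, 8.38 and 9.63 in wild type samples. Wild type replicate 3 lay above HDAC9-/- replicate 2, and the other wild type arrays lay below every HDAC9-/- array. The means were 9.71 ± 0.32 in HDAC9-/- and 8.67 ± 0.85 in wild type samples (SD, n = 3 each), which differed by 1.03 (standard error 0.41, 2.05-fold, 95% confidence interval from 0.07 to 2.0). Without wild type replicate 3 the difference was 1.51 (standard error 0.20, 2.86-fold). Probe set 1448378_at read 9.11, 8.60 and 8.61 in HDAC9-/- and 7.82, 8.10 and 8.56 in wild type samples. Here the groups did not overlap, although wild type replicate 3 was close to the 2 lower HDAC9-/- arrays. Its difference was 0.61 (standard error 0.22), and 0.81 (standard error 0.18) without wild type replicate 3. All 4 Fscn1 probe sets, the 2 dim ones below included, were designed on the same source sequence.

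The 2 other Fscn1 probe sets were dimmer than the median of the array and did not follow this order throughout. Probe set 1416515_at read 5.55, 4.94 and 5.56 in HDAC9-/- and 4.85, 4.81 and 5.90 in wild type samples, with wild type replicate 3 the highest of all 6 arrays. Its difference was 0.16 (standard error 0.32), and 0.52 (standard error 0.19) without that array. Probe set 1416516_at stayed between 4.63 and 4.75 in HDAC9-/- and between 4.59 and 4.93 in wild type samples, with a difference of -0.04 (0.06 without wild type replicate 3).

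Crk differed in direction between its 5 probe sets. Probe set 1416201_at read 5.65, 5.58 and 5.63 in HDAC9-/- and 6.37, 6.82 and 6.06 in wild type samples, so that every HDAC9-/- array was lower. Its difference was -0.80 (standard error 0.18, 1.74-fold lower), and -0.98 (standard error 0.13) without wild type replicate 3, which was the lowest wild type array. Probe set 1448248_at read 7.12, 6.93 and 6.84 in HDAC9-/- and 7.42, 7.18 and 7.23 in wild type samples, again without overlap, with a difference of -0.31 (standard error 0.10). Probe set 1425855_a_at went the other way, at 6.48, 6.71 and 6.92 in HDAC9-/- and 6.33, 6.39 and 6.45 in wild type samples, a difference of 0.31 (standard error 0.12) with no overlap. The probe sets 1460176_at (difference -0.13) and 1436835_at (0.10) were dim, at 3.39 to 4.27 over all arrays. The 3 probe sets with negative differences share 1 source sequence in the platform annotation, and the 2 with positive differences come from other sequences. Whether they report different Crk transcripts was not tested.

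**Figure D1:**
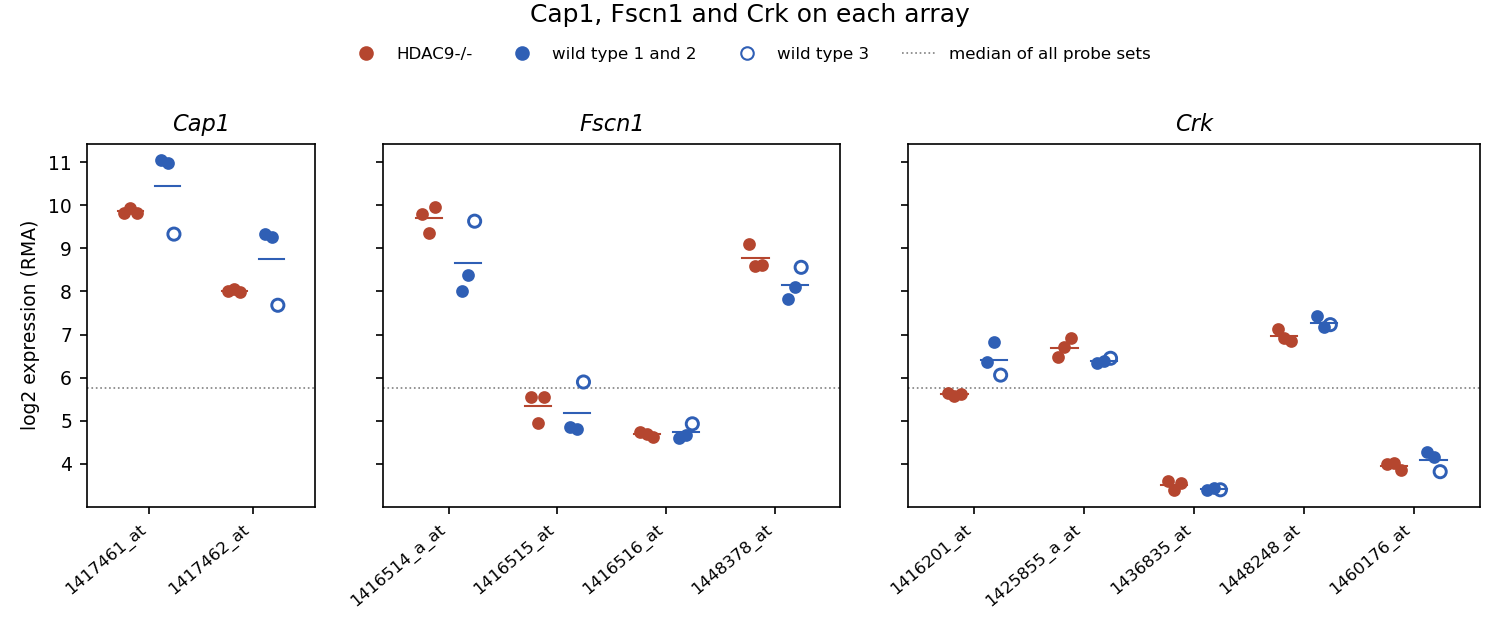
Log2 expression of the probe sets of Cap1, Fscn1 and Crk, with 1 point per array, HDAC9-/- left of wild type, short lines at the group means and a dotted line at the median of all probe sets. Wild type replicate 3 (open circle) lies at 9.33 for Cap1 1417461_at, below the other 5 arrays, and at 9.63 for Fscn1 1416514_a_at, among the HDAC9-/- arrays.

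The genes that hold and deliver actin monomers showed differences near 0. Tmsb4x, thymosin beta 4, which sequesters monomers, read 13.93, 13.92 and 13.96 in HDAC9-/- and 13.96, 13.92 and 14.00 in wild type samples. Pfn1, profilin 1, which feeds monomers to growing ends, read 13.37, 13.36 and 13.40 in HDAC9-/- and 13.37, 13.34 and 13.34 in wild type samples. In both genes the groups overlapped. The 95% confidence interval of the difference ran from -0.17 to 0.13 for Tmsb4x and from -0.12 to 0.17 for Pfn1. Both probe sets lie near the top of the scale, where array signal can saturate and differences shrink.

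The filament-turnover genes varied little as well. Cfl1, cofilin 1, read 11.98, 11.90 and 11.83 in HDAC9-/- and 11.92, 11.89 and 11.98 in wild type samples in probe set 1448346_at, a difference of -0.02 (standard error 0.07). Its other probe set, 1455138_x_at, whose suffix marks probes that may bind related transcripts, differed by 0.08 (standard error 0.07). Cofilin, profilin and thymosin have many processed pseudogenes, so their signal may be shared with copies. Wdr1, which speeds cofilin-driven disassembly, had negative differences in its 3 probe sets, the largest being -0.10 (standard error 0.07) in 1437591_a_at, at 8.69, 8.76 and 8.83 in HDAC9-/- and 8.85, 8.81 and 8.93 in wild type samples. Coro1a, a coronin of leukocytes needed for the survival of naive T cells, had differences of -0.03, 0.01 and 0.02, and its probe set 1416246_a_at read 13.01, 13.03 and 13.09 in HDAC9-/- and 13.07, 13.06 and 13.10 in wild type samples. For each of these genes the groups overlapped in every probe set.

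Branching and capping genes followed suit. Arpc2, a core subunit of the Arp2/3 complex, read 12.77, 12.84 and 12.82 in HDAC9-/- and 12.76, 12.85 and 12.76 in wild type samples, a difference of 0.02 with a confidence interval from -0.14 to 0.17. Capzb, the beta subunit of capping protein, read 10.81, 10.77 and 10.71 in HDAC9-/- and 10.68, 10.67 and 10.78 in wild type samples in 1417259_a_at, a difference of 0.05 (standard error 0.07). Its 3 other probe sets differed by -0.03 to 0.08. The confidence intervals of the 15 probe sets of the 7 genes other than Cap1, Fscn1 and Crk all contained 0, and they reached no lower than -0.34 and no higher than 0.32.

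**Figure D2:**
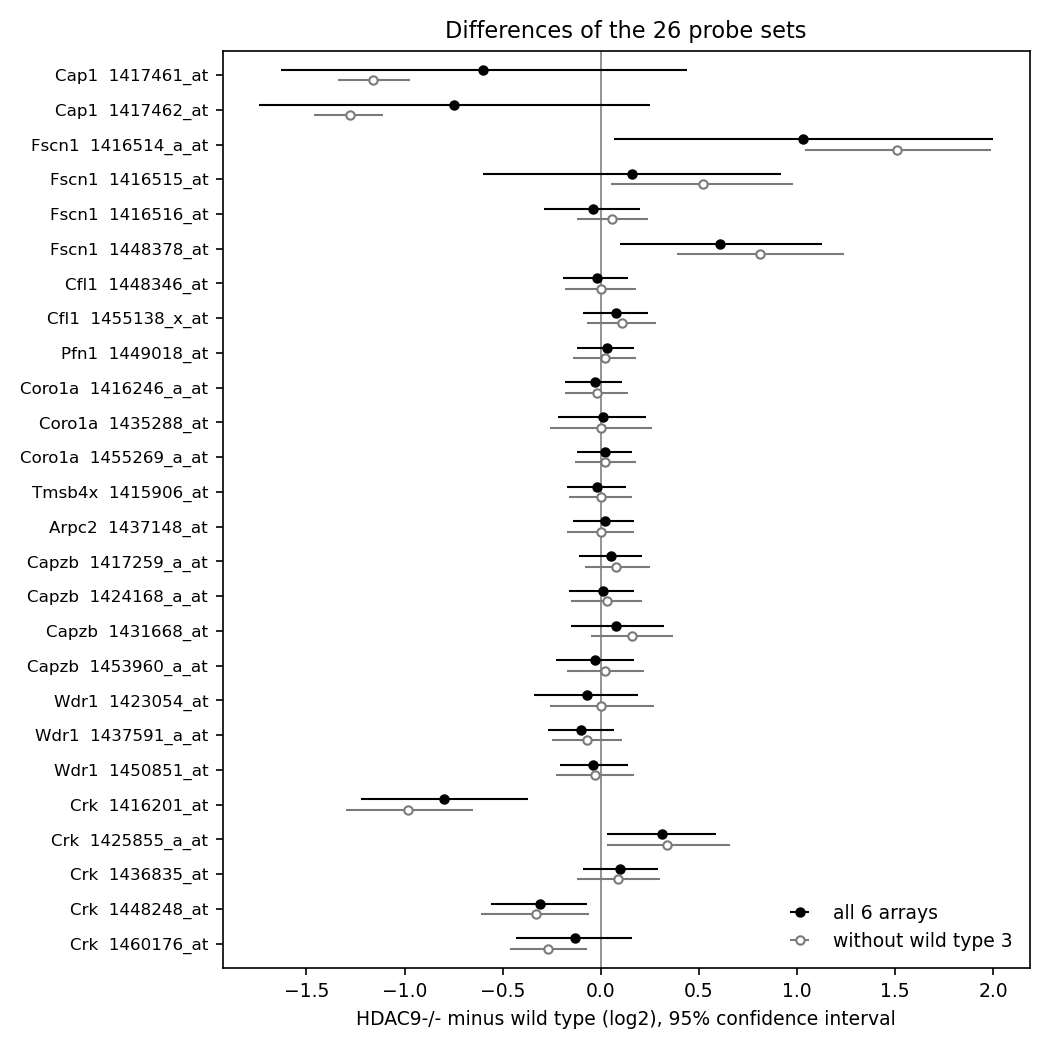
Difference between HDAC9-/- and wild type samples on the log2 scale for each of the 26 probe sets, with the 95% confidence interval from the limma fit over all probe sets, for all 6 arrays (filled) and without wild type replicate 3 (open). Leaving that array out narrows the Cap1 intervals, which then run from -1.34 to -0.97 and from -1.46 to -1.11, while the intervals of Cfl1, Pfn1, Coro1a, Tmsb4x, Arpc2, Capzb and Wdr1 contain 0 both ways.

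Over all 26 probe sets, 13 differences were positive and 13 negative, with a median of -0.0065, where 52.2% of all probe sets had a positive difference and a median of 0.0078. With array medians aligned the split was 9 positive to 17 negative, and 44.9% of all probe sets were positive. None of the 26 passed an adjusted p of 0.05 over all probe sets with limma, in which 3 probe sets (0.0133%) passed, and none passed with array weights or with a trended and robust variance prior. An unadjusted p below 0.05 was reached by 5 of the 26 and by 8.78% of all probe sets. The genotypes did not overlap in 4 of the 26 (15.4%), 2 higher and 2 lower in HDAC9-/- cells, against 17.0% of all probe sets (11.0% higher, 6.04% lower). All 4 belonged to Fscn1 or Crk. Since the members were picked on this contrast, nothing is read from these counts.

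Genes of the wider actin machinery, listed by textbook role, gave 112 measured genes of 133 listed, the 10 members included, each by the probe set with the highest mean. In HDAC9-/- cells 52 had a positive and 60 a negative difference, with a median of -0.0039, against 54.0% positive and a median of 0.013 over all genes. With array medians aligned 37 were positive and 75 negative (33.0% positive, against 46.5% of all genes). With limma, 0 passed an adjusted p of 0.05, against 0.00807% of all genes. An unadjusted p below 0.05 was reached by 13 of the 112, against 8.74% of all genes. The genotypes did not overlap in 15 genes that were higher and 14 that were lower, or 25.9% of the 112, against 12.5% higher and 5.70% lower of all genes. Without wild type replicate 3 the positive count was 57, and Cap1 was then the 1 gene that passed. As Cap1 was chosen with its values known and its low array was left out, that pass is a description.

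Among monomer-binding genes 2 of 7 had positive differences. Cap2, the paralogue of Cap1 best known from muscle, read 3.66 ± 0.04 in HDAC9-/- and 3.99 ± 0.16 in wild type samples (SD, n = 3 each), near the bottom of the scale. Pfn2, a profilin best known from neurons, read 6.87 ± 0.17 in HDAC9-/- and 6.39 ± 0.28 in wild type samples, a difference of 0.48 (standard error 0.16). Neither passed.

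Of 12 genes for severing and turnover 8 had positive differences, and the genotypes did not overlap in 3 with higher and 1 with lower values, where 54.0% of all genes were positive and 12.5% were higher and 5.70% lower without overlap. Dstn, destrin, a relative of cofilin, read 7.90 ± 0.05 in HDAC9-/- and 7.45 ± 0.14 in wild type samples (SD, n = 3 each), a difference of 0.45 (standard error 0.09, limma, adjusted p = 0.398). Scin, the severing protein scinderin, differed by 0.39. Gmfb, which removes Arp2/3 branches, differed by -0.17, and Gsn, gelsolin, by 0.21.

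The 6 measured subunits of the Arp2/3 complex differed by -0.04 to 0.11. Arpc1a (0.11) and Arpc5l (0.06) were higher without overlap between genotypes, as were 12.5% of all genes. The list of factors that switch the complex on, taken with their partners, included Wipf1, the partner that stabilises the Wiskott-Aldrich syndrome protein. Wipf1 read 9.76 ± 0.03 in HDAC9-/- and 10.06 ± 0.06 in wild type samples (SD, n = 3 each), a difference of -0.30 (standard error 0.07, limma, adjusted p = 0.398). Hcls1, a cortactin relative of blood cells, differed by -0.25, and 6 of the 11 genes of this list had positive differences. The 4 measured formins, which elongate unbranched filaments, differed by -0.12 (Fmnl1) to 0.10 (Diaph3), and the 9 capping genes by -0.15 (Add3, an adducin) to 0.12. Capza2, the partner of Capzb in capping protein, read 10.55 ± 0.01 in HDAC9-/- and 10.45 in wild type samples.

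Of 17 bundling and linking genes 9 had positive differences, Fscn1 included. Vcl, vinculin, read 6.16 ± 0.12 in HDAC9-/- and 5.71 ± 0.40 in wild type samples (SD, n = 3 each), a difference of 0.46 that was 0.22 without wild type replicate 3. Pls3, a plastin of non-blood cells, differed by 0.34 at dim means of 3.72 in HDAC9-/- and 3.38 in wild type samples, and Evl, an Ena/VASP protein of leukocytes, by -0.20. Of the 11 adaptors, Crk included, 9 had negative differences, among them Nck1 (-0.44), Dock8 (-0.24), an activator of Cdc42 in lymphocytes, and the Crk paralogue Crkl (-0.26). The genotypes did not overlap in 4, namely Crk, Nck1, Dock2 and Dock8, all with lower values, where 5.70% of all genes were lower without overlap. Crk, a member picked on this contrast, was counted by 1448248_at, while its probe set 1425855_a_at was higher without overlap. None of the 11 adaptors passed. The 13 genes of actin, myosin and tropomyosin differed by -0.15 (Tpm4) to 0.15 (Myo9b), and Actb, beta-actin, read 13.68, 13.80 and 13.77 in HDAC9-/- and 13.77, 13.90 and 13.74 in wild type samples. Srf, serum response factor, differed by 0.12, and its coactivator Mrtfb by -0.16.

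**Figure D3:**
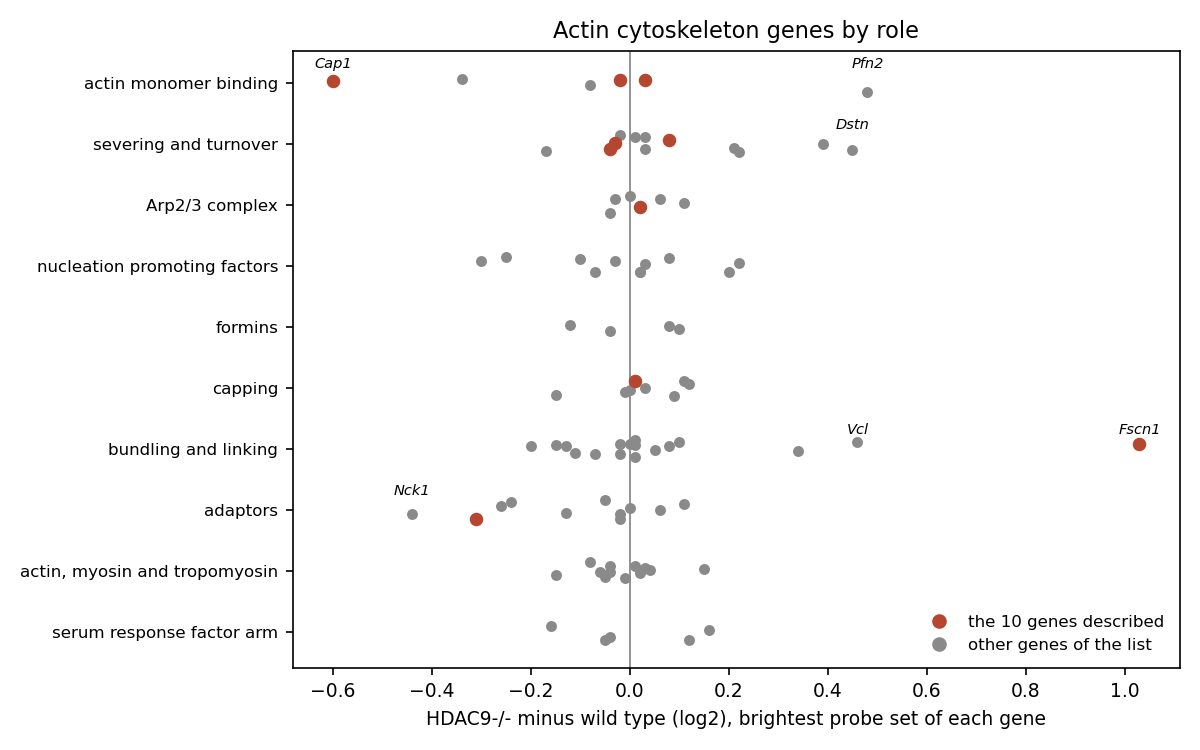
Difference between HDAC9-/- and wild type samples on the log2 scale for 95 actin cytoskeleton genes in 10 lists, 1 point per gene by its probe set with the highest mean. Points are spread vertically within a list for legibility, red points are the 10 genes described, and genes beyond 0.4 in either direction are named. Fscn1 lies at 1.03 and Cap1 at -0.60, and the other genes lie between -0.44 and 0.48.

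The genes whose levels over the 6 arrays were most like those of Fscn1 included Ccl22, a chemokine made by dendritic cells and macrophages. Likeness was measured as the root mean square difference over the 6 arrays between 2 probe sets after each had its own mean subtracted, so it uses the same values as above and describes them. It was 0.17 log2 units for Ccl22, 0.27 for Anxa3 (annexin A3) and Cxcl16 (a membrane-bound chemokine of antigen-presenting cells), 0.30 for Clu (clusterin) and 0.39 for Mt1 (a metallothionein), with a median of 0.75 over all other probe sets. Ccl22 read 8.0, 7.36 and 7.97 in HDAC9-/- and 6.44, 6.68 and 7.63 in wild type samples. As for Fscn1 1416514_a_at, wild type replicate 3 lay above HDAC9-/- replicate 2 and below the other 2 HDAC9-/- arrays. The dim Fscn1 probe set 1416515_at was less like 1416514_a_at (0.47) than these 5 genes were, and 1448378_at stood at 0.41.

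The gene most like Cap1 1417461_at was Cap1 itself in its second probe set, at 0.08. The nearest other genes were Ltn1 (0.25), a ubiquitin ligase of ribosome quality control, Ccr9 (0.26), a gut-homing chemokine receptor, C230091D08Rik (0.26), Prkx (0.28), a protein kinase, and Arid4b (0.30), a chromatin protein, with a median of 0.64 over all other probe sets. Ltn1 read 5.38, 5.56 and 5.63 in HDAC9-/- and 6.06, 6.50 and 5.04 in wild type samples. In each of the 5, wild type replicate 3 was the lowest array and wild type replicate 2 the highest, whereas Cap1 was highest in wild type replicate 1.

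**Figure D4:**
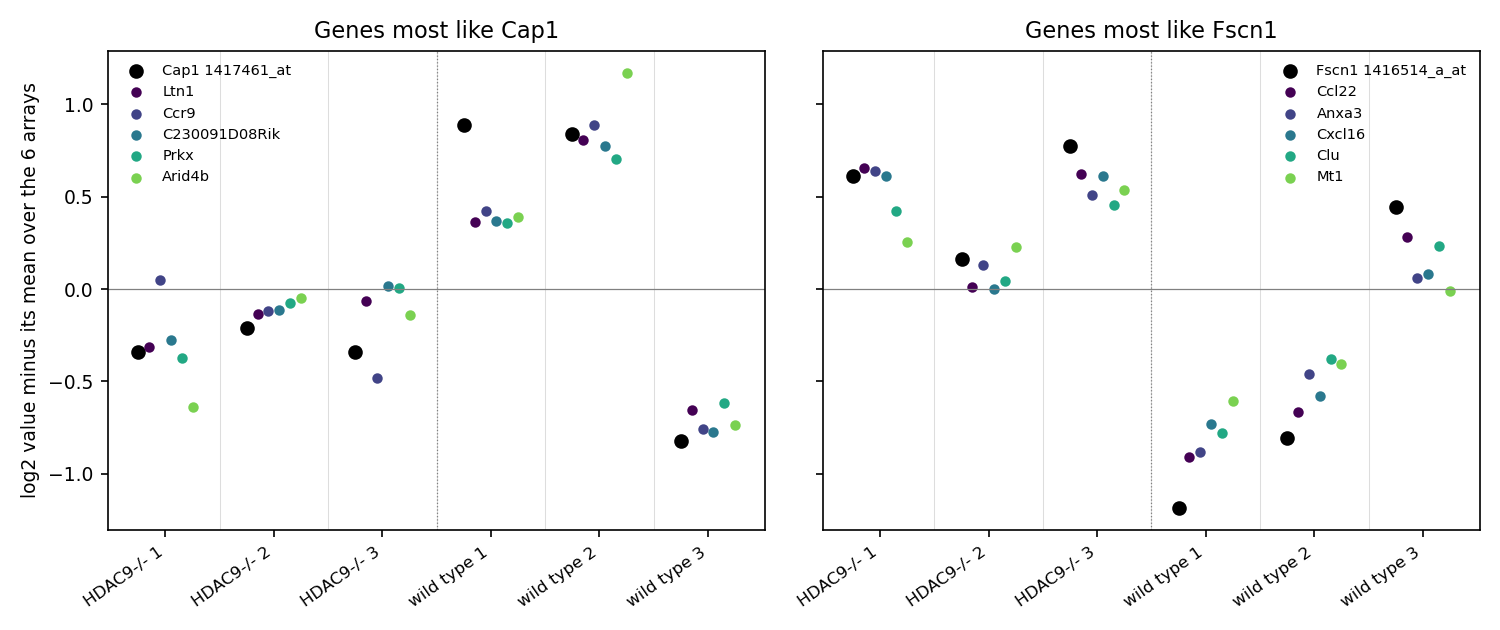
Log2 value minus its mean over the 6 arrays for Cap1 1417461_at and Fscn1 1416514_a_at (black) and the 5 genes most like each, with arrays along the horizontal axis and points offset sideways for legibility. Wild type replicate 3 is low in the Cap1 panel, where Ltn1 reads 5.04 on that array against 6.06 and 6.50 on the others of its group, and high in the Fscn1 panel, where Ccl22 reads 7.63 against 6.44 and 6.68.

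Beside Fscn1, markers of dendritic cells, monocytes and macrophages, neutrophils, and CD8 T and natural killer cells had mostly positive differences. Over all genes 54.0% of differences were positive, and no marker passed the limma test. Of 14 measured dendritic cell markers 13 had positive differences in HDAC9-/- samples. The mean level of the 14 was 7.35, 7.15 and 7.11 in HDAC9-/- and 6.82, 6.90 and 7.09 in wild type samples. Wild type replicate 3 was the highest wild type array, as for Fscn1, but HDAC9-/- replicate 3, the highest array for Fscn1 1416514_a_at, was the lowest HDAC9-/- array. In wild type replicate 3, Cd83, Cd80, Cd86 and Zbtb46 lay 0.14 to 0.42 below their means in wild type replicates 1 and 2. The other measured dendritic cell markers lay above theirs. Flt3, the cytokine receptor on which dendritic cells depend, had a difference of 0.47, Ccl17, a chemokine of dendritic cells, of 0.58 and Itgax, which encodes CD11c, of 0.28, each without overlap. They were the only 3 of the 14 without overlap, where 12.5% of all genes were higher without overlap. Zbtb46 (0.18), a marker of classical dendritic cells, and Xcr1 (-0.06), a marker of a subset of them, were dim (under the median of 5.76), as were Cd80, Cd40 and Ccl17. Monocyte and macrophage markers had positive differences in 9 of 9 genes and a mean level of 7.63 to 8.22 in HDAC9-/- and 7.33 to 7.71 in wild type samples. Neutrophil markers had positive differences in 9 of 9 genes and a mean level of 8.42 to 8.67 in HDAC9-/- and 7.08 to 7.99 in wild type samples, lowest in wild type replicate 1. Without overlap, 6 of the 9 neutrophil and 3 of the 9 monocyte and macrophage markers were higher, beside the same 12.5% of all genes. The median difference was 1.0 for neutrophil, 0.33 for monocyte and macrophage and 0.21 for dendritic cell markers. Of 7 CD8 T and natural killer cell markers 6 had positive differences. Their mean level was 7.90 to 8.31 in HDAC9-/- and 7.77, 7.75 and 7.99 in wild type samples, again highest in wild type replicate 3 within its group. The CD8 genes Cd8a and Cd8b1 were instead lowest in wild type replicate 3 within its group, at 5.87 and 7.50. The other markers of this list (Gzmb, Nkg7, Klrd1, Ncr1 and Eomes) were highest there within the group. The part of these cells in the Fscn1 signal was not tested. Beside Cap1, the Treg and T cell identity list read 9.91 in wild type replicate 3, against 9.93 and 9.97 in the other wild type samples. That lower mean came from the dim Ikzf2, which lay 0.76 below its mean in wild type replicates 1 and 2. Cd3e, Cd3g, Cd4, Foxp3, Il2ra and Ctla4 each lay 0.05 to 0.11 above theirs.

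**Figure D5:**
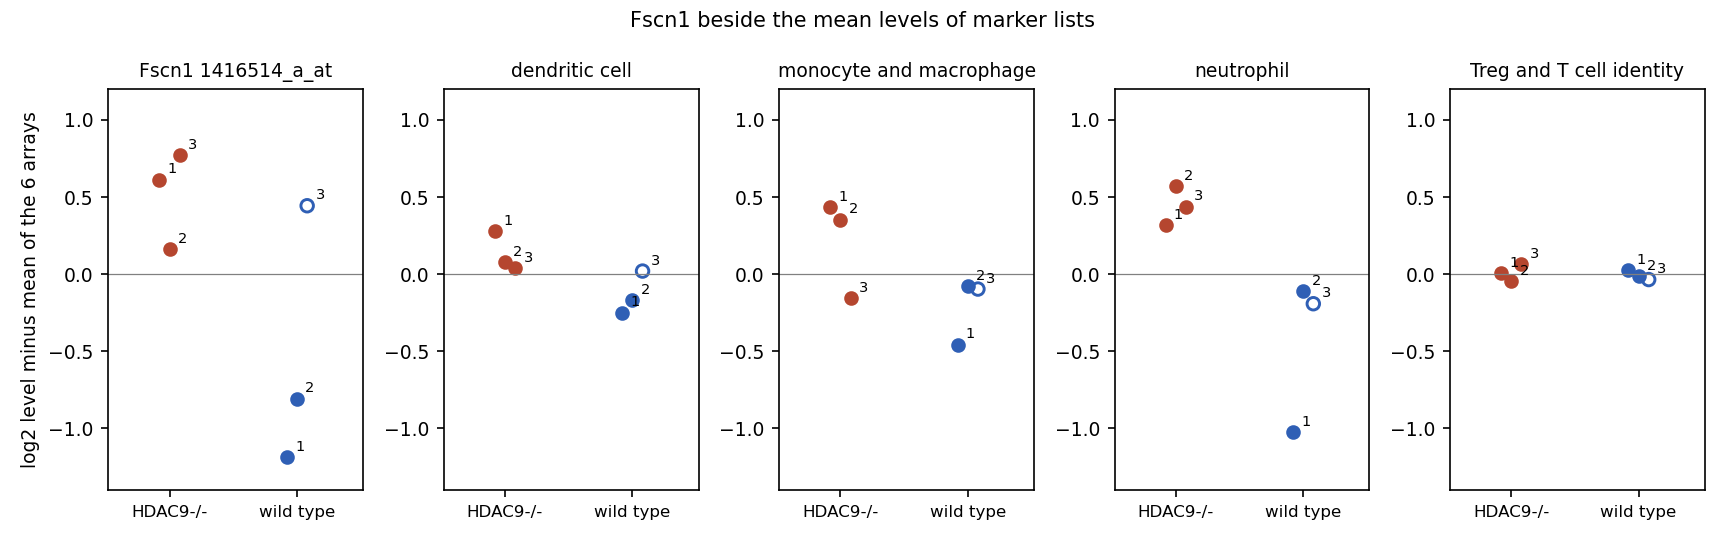
Log2 level of Fscn1 1416514_a_at and mean log2 level of 4 marker lists on each array, each shown minus its mean over the 6 arrays, with replicate numbers beside the points and wild type replicate 3 as an open circle. The dendritic cell list runs from 7.11 to 7.35 in HDAC9-/- and from 6.82 to 7.09 in wild type samples before centring, and the Treg and T cell identity list stays within 9.90 to 10.01 on all 6 arrays.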

How the data were processed

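Total RNA of CD4+CD25+ cells, 3 samples of HDAC9-/- and 3 of wild type mice, was amplified, labelled with biotin and read on 1 array each. The deposited log2 values, 1 per probe set and array, were computed by RMA, as the submitters' processing notes record without a version. RMA compresses differences of dim probe sets. Groups and replicate numbers came from the sample titles. The 64 control probe sets were left out of the 22690, and 22626 were fitted with no filter (limma 3.58.1, R 4.3.3, lmFit and eBayes, genotype alone, Benjamini-Hochberg over all). The fit was tested on simulated data. Of the probe sets, 20380 have 1 gene symbol, 691 several and 1555 none; 20351 symbols were updated through the Entrez identifier.

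Members, 11 role lists, 8 marker lists and alternatives were chosen with earlier results of these data known; no list test was run. Of the role lists, 1 is counted in the totals and not reported here by itself. Named genes were all members, the 2 to 4 genes of each role list with the smallest p, and the 5 genes most like Cap1 and Fscn1. Marker genes, Actb and genes in the closing section were named after their values were seen. Gene lists use the probe set with the highest mean per gene. Motif searches covered both strands of RefSeq promoters (GRCm38.p6). Alternatives changed the normalization, the filter, the variance prior, array weights, the threshold, the probe set per gene, the replicate block and the arrays included; leaving out wild type replicate 3 beside each value was chosen after seeing the data. Figures used matplotlib 3.10.9.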

Additional observations from a re-analysis of the deposited data

How the results depend on the processing

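The Cap1 1417461_at difference of -0.60 ran from -1.16 (without wild type replicate 3) to -0.30 with single arrays left out, and the Fscn1 1416514_a_at difference of 1.03 from 0.70 (without wild type replicate 1) to 1.51 (without wild type replicate 3). The sign held for 16 of 26 member probe sets under the normalization, filter, block and left-out-array alternatives; the 10 that turned differed by at most 0.16 in size. The count of 3 probe sets passing over the array became 15 with the trended and robust prior, 6 with array weights, 5 at an adjusted p of 0.10 and 1987 at an unadjusted p of 0.05. With single arrays left out it was 0 to 6: 0 without wild type replicate 1 or any HDAC9-/- replicate, 1 when wild type replicate 2 was left out, and 6 without wild type replicate 3. Deviations of same-numbered arrays correlated at 0.04, 0.10 and -0.25, against -0.35 to 0.28 for arrays with different numbers. These values showed no pairing by replicate number but are too few to settle it. With the replicate block 0 probe sets passed, and the block left every member on the same side of the threshold. Of the 112 actin genes 0 passed, 0 to 1 with single arrays left out (Cap1, without wild type replicate 3), and 13 at an unadjusted p of 0.05. Aligning array medians moved positive differences to 34.6% of member probe sets. Signal over background limits what the dim probe sets can show.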

Other observations

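The 122 probe sets in which wild type replicate 3 lay more than 1 log2 unit from both other wild type arrays held 78 above and 44 below. In 42 of them (34.4%) all 3 HDAC9-/- arrays also lay on that side of wild type replicates 1 and 2, as they did for both Cap1 probe sets and for 2 of Fscn1. Over all 22626 probe sets the HDAC9-/- arrays and wild type replicate 3 lay together on 1 side in 16.3%. Unlike the 122, the 22626 include probe sets with wild type replicate 3 between its mates, which could not qualify, so the 2 shares are not alike. Beside the 2 of Cap1, the probe sets that passed without wild type replicate 3 were those of Rab6b, a Golgi GTPase (3.38, limma, adjusted p = 0.00527), Il7r, the interleukin-7 receptor (-1.33), Ptp4a2, a phosphatase (-1.24), and Igkv6-14, an antibody light chain segment (-1.57); they were named after their values were seen.

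Markers of further cell types were also read. The 6 B cell markers had 3 positive and 3 negative differences, the 6 platelet markers 2 and 4, and both red cell markers were negative. Mean levels of the platelet list, whose cells are rich in thymosin beta 4, were 4.68 to 4.84 in HDAC9-/- and 4.68 to 4.96 in wild type samples, and Pf4, Ppbp, Gp9, Gp1bb and Treml1 were dimmer than the median of the array. The actin control probe sets read 13.18 to 13.46 at the 5-prime end in HDAC9-/- and 13.35 to 13.64 in wild type samples.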
